A study of Arabidopsis thaliana with 10 samples.

Results

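The genes described here are the nuclear genes for core subunits of photosystem I (PSI) and photosystem II (PSII), the cytochrome b6f complex, the soluble electron carriers plastocyanin and ferredoxin, ferredoxin-NADP reductase (FNR) and the chloroplast ATP synthase. They were chosen by locus from their annotated roles by a rule that uses no measured value, though earlier results of these data were known when it was set, and are 34 of the 33602 loci in the count table. All 34 were found in the table and in the annotation, had counts in all 10 libraries, and were among the 16721 genes with enough counts to be tested. Of them, 13 are subunits assigned to PSI, counting PSAP, which the annotation also names CURT1B. PSII is covered by 11 genes, cytochrome b6f by 2, the carriers and FNR by 5 and the ATP synthase by 3.

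In the thylakoid membrane PSII oxidises water, cytochrome b6f passes the electrons to plastocyanin and pumps protons, PSI lifts the electrons to ferredoxin, FNR reduces NADP, and the ATP synthase uses the proton gradient. Each of these complexes is a mosaic of plastid-encoded subunits, which include the reaction centre proteins, and nuclear-encoded subunits, which are made in the cytosol and imported. Transcripts of the nuclear subunits are abundant in green tissue, and genes of this kind are known to be lowered when signals from an impaired plastid reach the nucleus, a process called retrograde signalling.

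The study used the lines P1-12 and KRAB of Arabidopsis thaliana, both in the Col-0 background, to ask how the transcriptome changes as MORF2, a plastid protein of the RNA editing machinery, is reduced. Both lines carry a dCas9-KRAB transcription repressor under a dexamethasone (Dex)-inducible promoter (pTA7002-Dexp:KRAB), and P1-12 also carries U6-26p:P1, which makes a guide RNA against the start of MORF2. Whole 8-d-old seedlings, raised under 16-h days on sucrose medium containing Dex or its solvent DMSO, gave the RNA. The 5 groups had 2 libraries each: KRAB (+0.25 μM Dex), P1-12 (+0.25 μM Dex), KRAB (+DMSO), P1-12 (+0.025 μM Dex) and, as the control of its line, P1-12 (+DMSO). The low dose below is 0.025 μM and the high dose 0.25 μM. Every comparison between P1-12 and KRAB rests on 1 transgenic line of each kind, Dex was present throughout growth, and the low dose was not given to KRAB. The study's methods call the 2 libraries of a group biological replicates without saying whether they came from separate sowings, and p-values measure only the spread between these libraries.

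Library totals ran from 9139050 to 40544617 counts, and the deepest libraries were 1 of KRAB (+DMSO) and 1 of KRAB (+0.25 μM Dex). MORF2 (AT2G33430) was at 113 and 118 CPM (counts scaled to a common library size by TMM) in P1-12 with DMSO, 109 and 106 at the low and 52.3 and 56 at the high dose, and KRAB had 124 and 118 with DMSO and 116 and 123 with Dex. Its log2 fold change in P1-12 was −1.09 at 0.25 μM Dex (adjusted p = 2.04e-08, edgeR quasi-likelihood test with Benjamini-Hochberg adjustment over all genes, as for every adjusted p here) and −0.10 at 0.025 μM (adjusted p = 0.469). The share of mitochondrial transcripts was 0.328% and 0.255% in P1-12 (+0.25 μM Dex) and at most 0.0848% in the other libraries, and its part in any result was not tested.

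Every one of the 34 genes fell in P1-12 at 0.25 μM Dex, and their summed share of a library's counts dropped from 4.24% and 4.15% with DMSO to 1.85% and 1.78%. The share was 3.48% and 3.16% at the low dose, and in KRAB it was 4.11% and 4.38% with DMSO and 3.77% and 3.78% with Dex. All 34 passed an adjusted p of 0.05, where 29.2% of all genes tested were called lower and 28.3% higher. The median log2 fold change of the 34 was −1.34, a fold of 0.394, while that of all genes tested was −0.00, and the range was −1.88 for PSBQ-1 to −0.81 for ATPG. Of the 34, 30 were SDEGs, the study's class of significantly differentially expressed genes (adjusted p under 0.0001 and a log2 change of at least 1 in size), against 8.06% of all genes tested. The other 4, PSBS, PSBR, ATPG and FD2, fell by 0.98, 0.82, 0.81 and 0.998 on the log2 scale. Both P1-12 (+0.25 μM Dex) libraries were below all 8 other libraries for each of the 34 genes, as they were for 30.8% of all genes tested. RNA of whole seedlings cannot tell fewer green cells from less RNA per cell.

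**Figure D1:**
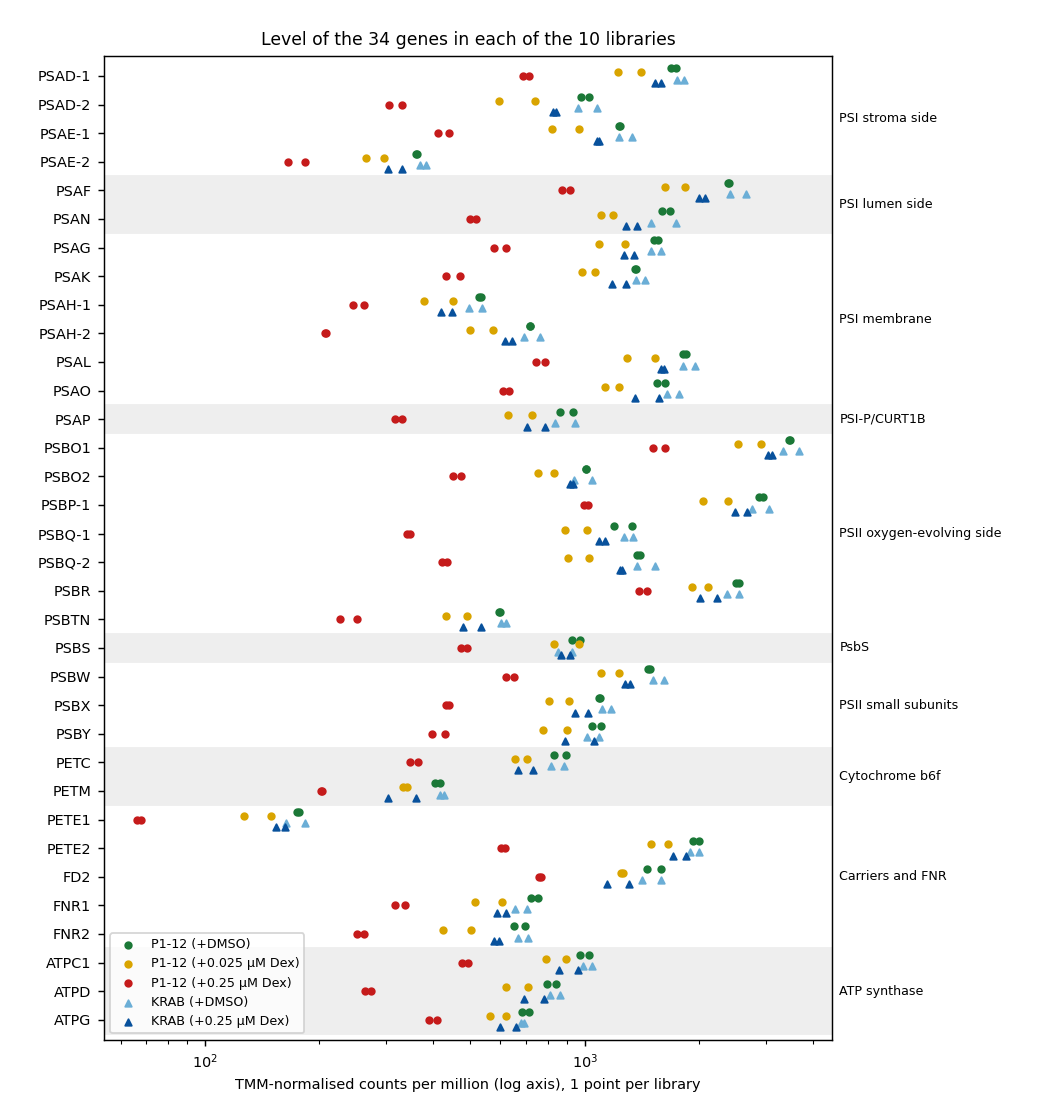
Level of each of the 34 genes (rows, grouped by role) in TMM-normalised CPM on a log axis, with 1 point per library and the colour giving the group. The red points of P1-12 (+0.25 μM Dex) lie to the left of all other points of the same gene, and the yellow points of P1-12 (+0.025 μM Dex) lie between them and P1-12 (+DMSO), except that 1 yellow PSBS point falls inside the P1-12 (+DMSO) range.

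**Figure D2:**
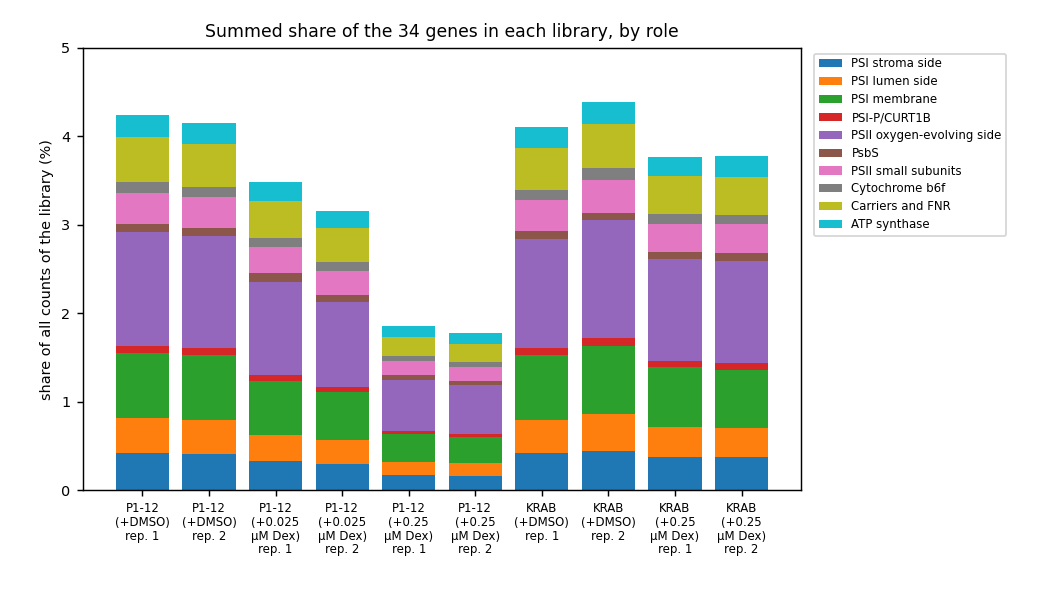
Summed share of all counts taken by the 34 genes in each of the 10 libraries, as stacked bars starting at 0 with 1 colour for each role. The bars end at 1.85% and 1.78% in P1-12 (+0.25 μM Dex) and between 3.16% and 4.38% elsewhere, and every role takes part in the drop.

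Without Dex these are among the most abundant nuclear transcripts of the seedlings. Measured per length (CPM per kb of exon) in P1-12 (+DMSO), 28 of the 34 were among the 100 highest of 16662 nuclear genes and 33 among the 200 highest. PSBR had the highest level of the 34, 3214 CPM per kb and rank 11, followed by PSBO1 at 2289 and rank 14. The exception was PETE1, 1 of the plastocyanin genes, at 168 CPM per kb and rank 541.

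The stromal side of PSI is formed by PsaD and PsaE, on which ferredoxin docks, and Arabidopsis has a pair of genes for each. All 4 genes fell and were SDEGs, with a median log2 fold change of −1.41. PSAD-2 was at 1027 and 977 CPM with DMSO in P1-12, 740.3 and 596 at the low dose and 331 and 306 at the high dose, while KRAB had 959 and 1076 with DMSO and 841 and 825 at the high dose. It fell by 1.65 on the log2 scale (SE 0.0999, adjusted p = 6.18e-09), and its partner PSAD-1 by 1.29 (SE 0.0809). In P1-12, PSAD-1 went from 1740.2 and 1685 CPM with DMSO through 1406 and 1227 at the low dose to 715 and 689 at the high dose, beside 1749 and 1827 for DMSO-treated and 1535 and 1592 for Dex-treated KRAB. For both copies the high-dose P1-12 libraries were the lowest and the low-dose ones next. The PsaE pair showed the opposite order, with the copy of higher CPM falling further. The high-dose P1-12 libraries held PSAE-1 at 440.5 and 411 CPM, the low-dose ones at 968 and 822 and the DMSO ones at 1231 and 1239, and KRAB held it at 1231 and 1334 with DMSO and 1092 and 1075 with Dex. PSAE-2 had 369 and 382 CPM in KRAB given DMSO and 331 and 303 in KRAB given Dex, against 363 and 359.8 in P1-12 given DMSO, 297 and 267 at the low and 184 and 166 at the high dose. The log2 fold changes were −1.54 for PSAE-1 (SE 0.087) and −1.05 for PSAE-2 (SE 0.0799). PSAE-1 (AT4G28750, chromosome 4, 14202758 to 14204061) overlaps annotated genes on the opposite strand by up to 436 bases. Whether the counting used strand is not stated, so its counts may include reads of those genes or lack reads of the shared stretches.

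On the lumenal side, PsaF docks plastocyanin and PsaN sits beside it. PSAN fell by 1.69 (SE 0.0873) and PSAF by 1.42 (SE 0.0844) on the log2 scale, and both were SDEGs. In P1-12, PSAN went from 1673 and 1598 CPM with DMSO through 1186 and 1101 at the low dose to 517 and 499.7 at the high dose, beside 1492 and 1738 for DMSO-treated and 1374 and 1286 for Dex-treated KRAB. PSAF was at 2396 and 2391 CPM with DMSO in P1-12, 1840.1 and 1625 at the low dose and 913 and 870.1 at the high dose, while KRAB had 2415 and 2658 with DMSO and 2071 and 1998 at the high dose. The groups kept the same order for both genes, the P1-12 (+0.25 μM Dex) libraries lowest and the P1-12 (+0.025 μM Dex) libraries next.

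Among the membrane subunits of PSI, PsaG and PsaK lie on the side of the light-harvesting antenna, while PsaH, PsaL and PsaO form the face where mobile antenna of PSII docks. All 6 genes fell and were SDEGs, with a median log2 fold change of −1.36. PSAK (−1.59), PSAG (−1.37), PSAO (−1.36) and PSAL (−1.26) lay between the copies of PsaH, which were the most and the least lowered of the 6. The high-dose P1-12 libraries held PSAH-2 at 207 and 209 CPM, the low-dose ones at 572 and 499.7 and the DMSO ones at 719 and 718, and KRAB held it at 692 and 761 with DMSO and 642 and 617 with Dex. PSAH-1 was at 527 and 534 CPM with DMSO in P1-12, 450.1 and 378 at the low dose and 263 and 245 at the high dose, while KRAB had 497 and 537 with DMSO and 446 and 419.7 at the high dose. PSAH-2 (AT1G52230, chromosome 1, 19454798 to 19455668) fell by 1.79 on the log2 scale (SE 0.082, adjusted p = 4.95e-10), and PSAH-1 (AT3G16140, chromosome 3, 5467987 to 5469594) by 1.06 (SE 0.0871, adjusted p = 1.30e-07). In counts, PSAH-2 was above PSAH-1 in 8 libraries and below it in both P1-12 (+0.25 μM Dex) libraries. Divided by full exon length (1300 bases for PSAH-1 and 702 for PSAH-2), PSAH-2 had the higher value in P1-12. It was at 1023 against 408 CPM per kb with DMSO and 296 against 195 at the high dose. PSAH-1 overlaps AT3G16130 on the opposite strand by 788 bases, and PSAH-2 overlaps an opposite gene by 174 bases. Without a stated strand setting, reads of these neighbours may be included, or reads of the shared stretches may be missing. The order per length takes all exon bases as countable, which was not tested. PSAG and FNR1 overlap opposite genes by 479 and 191 bases. The 150 bases before the start of PSAH-2 are shown because this gene was the most lowered of the PSI genes and its upstream stretch holds 2 G-boxes (letters CACGTG) and 1 I-box (GATAAG, here read on the other strand as CTTATC), written in capitals. Both are elements known from promoters of light-regulated plant genes. A match is a description of these letters only.
PSAH-2 (chr1:19454648-19454797, plus strand): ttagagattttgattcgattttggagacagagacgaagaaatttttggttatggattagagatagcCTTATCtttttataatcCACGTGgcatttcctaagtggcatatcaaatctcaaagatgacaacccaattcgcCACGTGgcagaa

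PSAP was first described as subunit P of PSI and is annotated as CURT1B, a protein that bends the thylakoid membrane at the margins of grana stacks. PSAP had 836 and 945 CPM in KRAB given DMSO and 705 and 785 in KRAB given Dex, against 932 and 861 in P1-12 given DMSO, 725 and 628 at the low and 331 and 316 at the high dose. It fell by 1.47 on the log2 scale (SE 0.0937, adjusted p = 1.03e-08). Other genes of the CURT1 family had log2 fold changes of −1.59 for CURT1A, −1.33 for CURT1C and −0.09 for CURT1D, of which the first 2 passed the test and CURT1D did not (adjusted p = 0.597).

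Of the PSII genes, 7 belong to the oxygen-evolving side, where PsbO, PsbP and PsbQ cap the manganese cluster on the lumenal face and the membrane protein PsbR and the small lumenal protein PsbTn accompany them. All 7 fell, 6 as SDEGs, with a median log2 fold change of −1.32. The widest span within any role was found here, from PSBQ-1 at −1.88 to PSBR at −0.82. PSBQ-1 was at 1334 and 1195 CPM with DMSO in P1-12, 1013 and 889.9 at the low dose and 346 and 341 at the high dose, while KRAB had 1266 and 1339 with DMSO and 1091 and 1129.7 at the high dose. The high-dose P1-12 libraries held PSBR at 1463 and 1387 CPM, the low-dose ones at 2109 and 1919.9 and the DMSO ones at 2496 and 2543, and KRAB held it at 2375 and 2552 with DMSO and 2226 and 2011 with Dex. Of the level with DMSO, 27.2% was left at the high dose for PSBQ-1 and 56.6% for PSBR. The adjusted p was 4.78e-10 for PSBQ-1 (SE 0.0858) and 1.13e-06 for PSBR (SE 0.0833). PSBQ-2 (−1.70) and PSBP-1 (−1.53) were the next most lowered, then PSBTN (−1.32), PSBO1 (−1.14) and PSBO2 (−1.13). The 150 bases before the start of PSBQ-1 (AT4G21280, chromosome 4, 11334352 to 11335815), the most lowered of all 34 genes, hold 2 G-boxes, again in capitals.
PSBQ-1 (chr4:11334202-11334351, plus strand): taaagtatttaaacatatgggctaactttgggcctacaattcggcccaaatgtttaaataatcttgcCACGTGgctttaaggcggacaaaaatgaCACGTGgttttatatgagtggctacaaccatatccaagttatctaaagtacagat

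PsbS (gene PSBS, also NPQ4) is the PSII protein that senses lumenal acidity and switches on heat dissipation of excess light. In P1-12, PSBS went from 971 and 926 CPM with DMSO through 968 and 828 at the low dose to 490.5 and 472 at the high dose, beside 853 and 929 for DMSO-treated and 866 and 914 for Dex-treated KRAB. Its fall at 0.25 μM Dex was 0.98 on the log2 scale (SE 0.0851, adjusted p = 2.36e-07). At 0.025 μM Dex it was the only gene of the 34 whose libraries overlapped those with DMSO.

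PsbW, PsbX and PsbY are small membrane-spanning subunits of PSII. All 3 genes fell as SDEGs, PSBY by 1.38, PSBX by 1.33 and PSBW by 1.21 on the log2 scale. PSBY was at 1046 and 1106 CPM with DMSO in P1-12, 901 and 777 at the low dose and 429 and 397 at the high dose, while KRAB had 1013 and 1092 with DMSO and 888 and 1060.5 at the high dose. PSBW had 1518 and 1617 CPM in KRAB given DMSO and 1314 and 1281 in KRAB given Dex, against 1484 and 1472 in P1-12 given DMSO, 1233 and 1102 at the low and 653 and 622 at the high dose. The SE was 0.0992 for PSBY, 0.0793 for PSBX and 0.078 for PSBW, and differences among the 3 were not tested.

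Cytochrome b6f is represented by PETC, which encodes the Rieske iron-sulphur protein, and PETM, which encodes a small subunit. In P1-12, PETC went from 894 and 832 CPM with DMSO through 703 and 654 at the low dose to 364 and 346 at the high dose, beside 813 and 881 for DMSO-treated and 729.8 and 668 for Dex-treated KRAB. PETM was at 417 and 403 CPM with DMSO in P1-12, 342 and 333 at the low dose and 204 and 202 at the high dose, while KRAB had 416 and 427 with DMSO and 359 and 303 at the high dose. PETC fell by 1.28 (SE 0.0801) and PETM by 1.01 (SE 0.08) on the log2 scale, both as SDEGs. PETM is the gene for which the KRAB libraries with Dex were also called lower.

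Plastocyanin carries electrons through the lumen to PSI, and ferredoxin and FNR carry them on to NADP in the stroma. All 5 genes of these carriers fell, 4 as SDEGs, with PETE2 (also DRT112) at −1.69 and the leaf ferredoxin gene FD2 (FED A) at −0.998 on the log2 scale. The high-dose P1-12 libraries held PETE2 at 617 and 603 CPM, the low-dose ones at 1659.7 and 1492 and the DMSO ones at 2004 and 1929.8, and KRAB held it at 1891 and 1998 with DMSO and 1706 and 1851 with Dex. In P1-12, FD2 went from 1586 and 1463 CPM with DMSO through 1258 and 1247 at the low dose to 766 and 760.1 at the high dose, beside 1415 and 1586 for DMSO-treated and 1309 and 1146 for Dex-treated KRAB. The adjusted p was 7.92e-10 for PETE2 (SE 0.0817) and 2.19e-07 for FD2 (SE 0.0861). The minor plastocyanin gene PETE1 fell by 1.39, FNR2 by 1.39 and FNR1 by 1.17.

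Of the nuclear subunits of the ATP synthase, ATPC1 encodes gamma of the rotor, ATPD encodes delta, which ties the catalytic head to the stator, and ATPG (PDE334) encodes the stator subunit b'. ATPD was at 843 and 797 CPM with DMSO in P1-12, 708 and 619.9 at the low dose and 274 and 265 at the high dose, while KRAB had 812 and 862 with DMSO and 691 and 783 at the high dose. ATPG had 681 and 692 CPM in KRAB given DMSO and 597 and 661 in KRAB given Dex, against 684 and 713 in P1-12 given DMSO, 619 and 562 at the low and 408 and 390.2 at the high dose. ATPD fell by 1.61 (SE 0.0877), ATPC1 by 1.04 (SE 0.0843) and ATPG by 0.81 (SE 0.0771) on the log2 scale. Subunits of a single enzyme thus included the least lowered of all 34 genes.

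At 0.025 μM Dex 30 of the 34 genes were already lower than with DMSO in P1-12, where 3.46% of all genes tested were called lower. The median log2 fold change was −0.37, with that of all genes at 0.00, and none of the 34 was an SDEG. PSBQ-2, FNR2, PSAN and PSAD-2 had the lowest p-values of the 34. The high-dose P1-12 libraries held PSBQ-2 at 435 and 422 CPM, the low-dose ones at 1028 and 904 and the DMSO ones at 1399.9 and 1377, and KRAB held it at 1371 and 1528 with DMSO and 1257 and 1242 with Dex. FNR2 was at 699 and 650.3 CPM with DMSO in P1-12, 504 and 424 at the low dose and 262 and 251 at the high dose, while KRAB had 666 and 710.3 with DMSO and 594 and 578 at the high dose. Their log2 fold changes were −0.52 for PSBQ-2 (adjusted p = 0.00113), −0.54 for FNR2 (adjusted p = 0.00119), −0.52 for PSAN (adjusted p = 0.00177) and −0.58 for PSAD-2 (adjusted p = 0.00191). These 4 were also the ones still called lower without low-dose replicate 2. The genes not called were FD2 (−0.28, adjusted p = 0.0591), ATPG (−0.24, adjusted p = 0.071), ATPC1 (−0.25, adjusted p = 0.0942) and PSBS (−0.08, adjusted p = 0.667), so 2 of the 3 ATP synthase genes were among them. For 33 of the 34 genes both 0.025 μM libraries were below both DMSO libraries, which held for 25.7% of all genes tested. The count of 30 depended on single libraries and was smaller with any 1 of them left out. The share of all genes called in those runs was not computed. The median log2 fold change of the 34 was −0.475 without low-dose replicate 1 and −0.279 without low-dose replicate 2.

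Between the Dex doses all 34 genes were lower at 0.25 than at 0.025 μM (26.4% of all genes tested were), with a median log2 fold change of −0.94, and 13 of them were SDEGs (5.28% of all genes tested). The 13 were 20 without low-dose replicate 2, and 8 without low-dose replicate 1 or with library totals as the only scaling. By group means every gene fell in the order DMSO, 0.025 μM, 0.25 μM, as 30.6% of all genes tested did. The part of the whole fall that was reached at 0.025 μM had a median of 38.0% over the 34 genes, the lowest being 10.7% and the highest 50.4%.

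**Figure D3:**
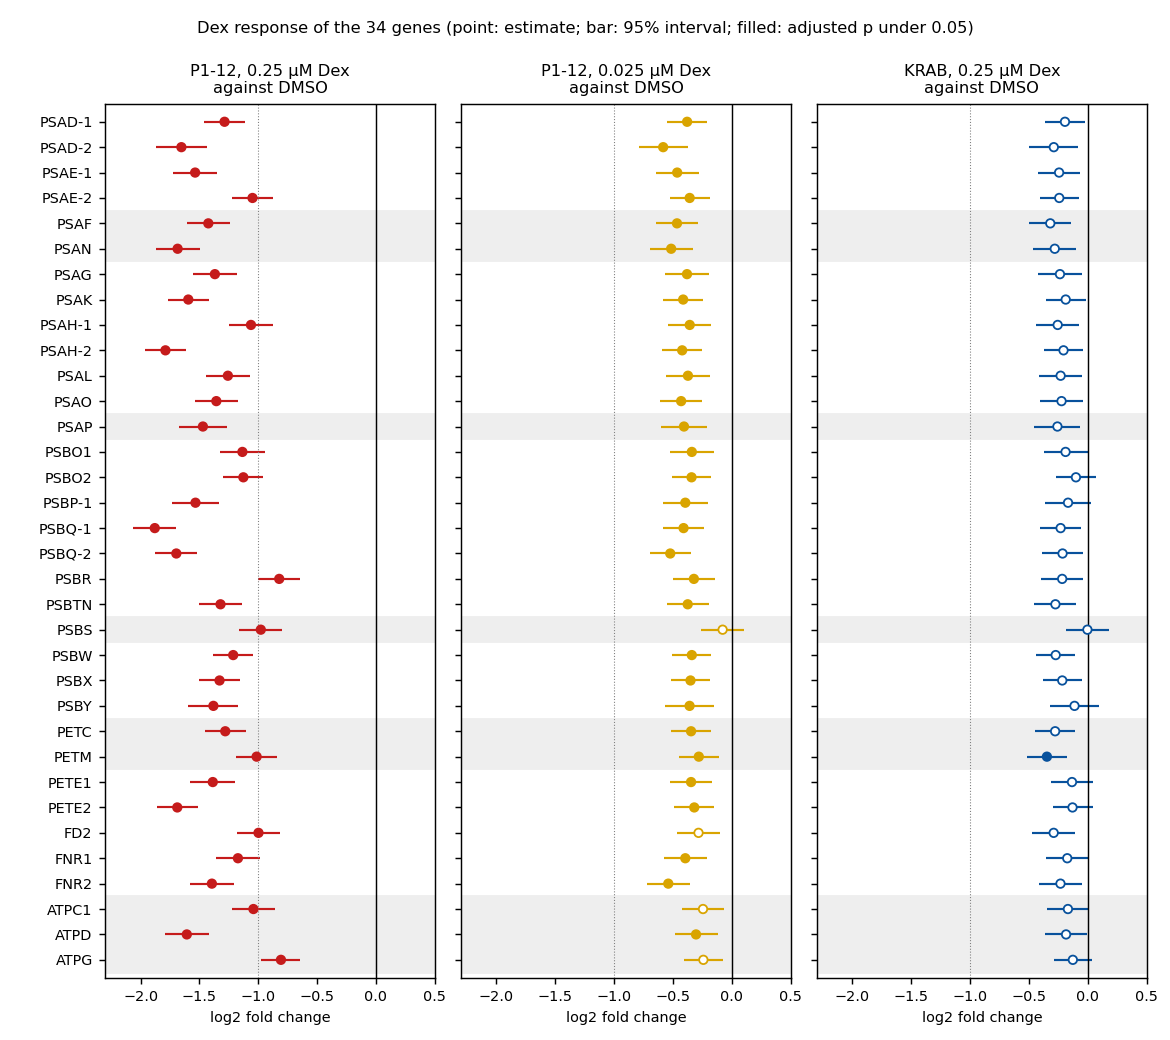
Log2 fold change with Dex against DMSO of each of the 34 genes (rows) in P1-12 at the high dose (0.25 μM), in P1-12 at the low dose (0.025 μM) and in KRAB at the high dose, with 95% intervals and filled points where the adjusted p was under 0.05. All points lie left of 0, around a median of −1.34 in the first panel, −0.37 in the second and −0.22 in the third, where only the PETM point is filled.

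In KRAB, which makes the repressor without the guide RNA, 1 of the 34 genes was called at 0.25 μM Dex, none of them higher. This was PETM, lower at −0.35 (SE 0.0779, adjusted p = 0.0307), where 0.813% of all genes tested were. The other 33 were not called, yet their estimates were all negative, with a median of −0.22 over the 34 genes beside −0.00 over all genes tested. Both Dex libraries were below both DMSO libraries for 32 of the 34 (23.1% of all genes tested), and 25 had an unadjusted p under 0.05 (8.07% of all genes tested were lower at that limit). The largest estimates after PETM were −0.32 for PSAF (adjusted p = 0.0563) and −0.29 for FD2 (adjusted p = 0.0923), and the smallest was −0.00 for PSBS. How many genes pass depended on the method. With no filter on low counts, which left 24782 genes, 15 did. The number was 6 with DESeq2, 5 with the edgeR exact test and 0 when only the KRAB libraries were fitted. For these runs the share of all genes called was not computed. PETM was not called without replicate 1 or 2 of KRAB (+DMSO) or without replicate 2 of KRAB (+0.25 μM Dex), the adjusted p then being 0.0557, 0.189 and 0.113. The count was 2 in the first case, PSAF and PSAN, and 0 in the other 2.

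The response to 0.25 μM Dex was more negative in P1-12 than in KRAB for all 34 genes by the test of the difference itself (25.1% of all genes tested were more negative). The median difference was −1.11 on the log2 scale, from −1.65 for PSBQ-1 to −0.60 for PSBR, and 23 genes met the SDEG limits for it (5.91% of all genes tested). With Dex at 0.25 μM in both lines, all 34 were lower in P1-12 than in KRAB (30.9% of all genes tested), by a median of −1.16, and 23 were SDEGs (7.49%). That comparison shares its P1-12 libraries with the Dex response above, so its values are not separate evidence. With DMSO in both lines none of the 34 was called in either direction by edgeR (0% of all genes tested were called lower and 0.012% higher), 0 had an unadjusted p under 0.05, and DESeq2 called 0 as well. The differences there ran from −0.10 for PSAO to 0.11 for FNR1, and the groups overlapped for 26 genes. P1-12 was below KRAB without overlap for 7 genes and above it for 1, where 17.6% and 17.4% of all genes tested were.

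For 7 of the proteins the 34 genes include a pair of copies. The balance within most pairs in P1-12 (+0.25 μM Dex) differed from that in the other libraries. The share of the first copy in the pair's counts was not corrected for length. It lay outside the range of the 8 other libraries in both P1-12 (+0.25 μM Dex) libraries for 6 of the 7 pairs. How often it does so for other pairs of genes was not computed. For PsaH, the share of PSAH-1 was 56.0% (95% Wilson interval 54.5 to 57.4) and 54.0% (52.6 to 55.4) in P1-12 (+0.25 μM Dex) and 40.5% to 44.0% in the other libraries. PSAE-1 made up 70.6% and 71.3% of the PsaE counts against 75.5% to 78.0% elsewhere. PSAD-1 had 68.3% and 69.3% of the PsaD counts, against 62.9% and 63.3% with DMSO, and the nearest other library, a low-dose one, was at 67.3%. In the plastocyanin pair PETE1 had 9.94% and 9.91% against 7.69% to 8.69%, in the FNR pair FNR1 had 56.2% and 55.8% against 49.6% to 54.8%, and in the PsbQ pair PSBQ-1 had 44.3% and 44.7% against 46.5% to 49.6%. With DMSO, FNR1 had 51.8% and 52.6% in P1-12 and 49.6% and 49.8% in KRAB. PsbO was the exception, with PSBO1 at 77.5% and 77.1% inside the range of 76.4% to 78.1%. These intervals cover counting error only, and 2 against 8 libraries or 2 against 2, where a two-sided permutation p cannot go below 0.333, were not tested. The coding sequences of the copies are 75.0% to 88.0% identical and the longest run of bases shared by the transcripts of a pair is 17 to 35 bases, shorter than the reads.

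**Figure D4:**
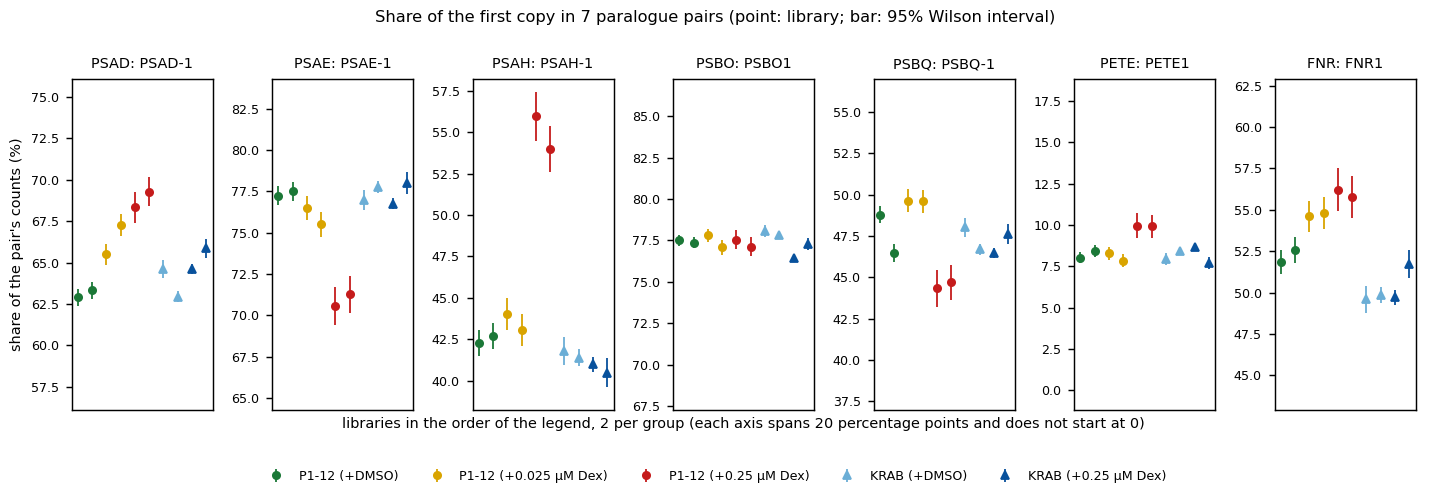
Share of the first copy in the counts of each of 7 gene pairs, with 1 point per library (2 for each of the 5 groups) and bars for the 95% Wilson interval. Each axis spans 20 percentage points. The red P1-12 (+0.25 μM Dex) points are at 56.0% and 54.0% for PSAH-1, above all other libraries, at 70.6% and 71.3% for PSAE-1, below them, and within the others for PSBO1.

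The 34 promoters, read from 250 bases before to 50 after the annotated gene start in the RefSeq genome TAIR10.1, more often held 2 light-related elements than promoters in general. The G-box CACGTG, which reads the same on both strands, was found in 12 of 34 (35.3%) and in 7.68% of 27431 promoters of the same length. The I-box GATAAG, searched on both strands, was found in 18 (52.9%) against 14.7%, and 5 genes (PSAH-1, PSAH-2, PSBQ-1, PSBQ-2 and PSBTN, 14.7%) held both against 1.29%. The other motifs searched on both strands differed less: TATAAA was in 52.9% against 52.1%, CCAATC in 20.6% against 12.4%, GGTTAA in 23.5% against 16.7%, the W-box TTGACC in 17.7% against 14.2% and AAAATATCT, the evening element, in 2.94% against 2.82%. In the 34 promoters 1 pair of matches to different motifs shared a base. The shares were not tested. The median log2 fold change at 0.25 μM Dex was −1.27 for the 12 genes with a G-box and −1.36 for the 22 without, and −1.37 for the 18 with an I-box and −1.27 for the 16 without.

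In 4 of the pairs both copies held a G-box, and 30-base windows around 1 match of each copy are shown to compare them, with the G-box in capitals. The matches shown lie at unlike places, some of them after the annotated gene start. Counted from that start, the first base is at 19 in PSAH-1 and −67 in PSAH-2, and at 9 in PSAE-1 and −63 in PSAE-2. It is at 4 in PSBO1 and 34 in PSBO2, and at −83 in PSBQ-1 and −145 in PSBQ-2.
PSAH-1 (chr3:5469559-5469588, minus strand): cctactagattcCACGTGgcattttccaag
PSAH-2 (chr1:19454719-19454748, plus strand): ctttttataatcCACGTGgcatttcctaag
PSAE-1 (chr4:14204036-14204065, minus strand): atatgtaatgtaCACGTGgcagatctcaag
PSAE-2 (chr2:8736659-8736688, plus strand): gatatgtgatcaCACGTGtcatatcacaag
PSBO1 (chr5:26568563-26568592, plus strand): ttcagatttcgaCACGTGgcaacaaaaaaa
PSBO2 (chr3:18892459-18892488, minus strand): catcagctttagaCACGTGgctattgatcg
PSBQ-1 (chr4:11334257-11334286, plus strand): aaataatcttgcCACGTGgctttaaggcgg
PSBQ-2 (chr4:2673371-2673400, minus strand): acgtcattcagcCACGTGacaatcgcattc
Around the G-box the PsaH copies shared the longest run, the 14 bases tcCACGTGgcattt. The windows of PsbO shared 10 bases. The longest run shared between windows of PsbQ was 8 bases and that of PsaE 7. Whether these runs bear on the responses to Dex was not tested.

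**Figure D5:**
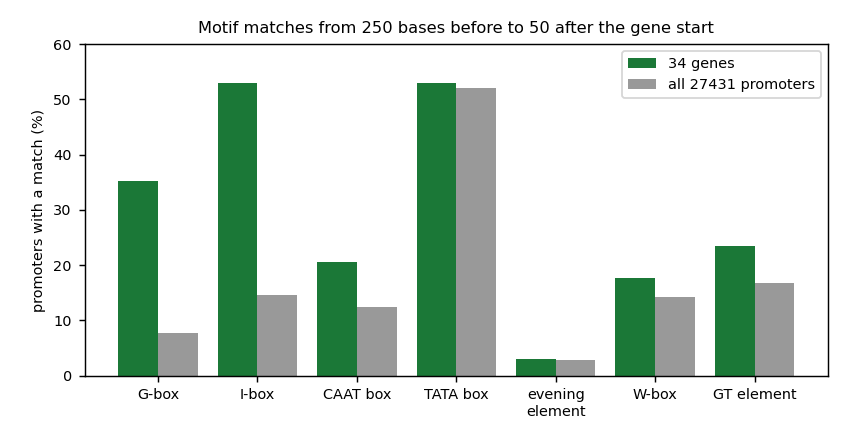
Share of promoters with at least 1 match to each of 7 motifs, for the 34 genes (green) and all 27431 promoters (grey), as bars starting at 0. The G-box bars are at 35.3% and 7.68% and the I-box bars at 52.9% and 14.7%, while the TATA box bars are nearly level at 52.9% and 52.1%.

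Genes for the assembly and repair of the same complexes fell too. All 16 listed were called lower in P1-12 at 0.25 μM Dex, where 29.2% of all genes tested were. Their median log2 fold change was −1.23, and 10 were SDEGs, against 8.06% of all genes tested. The most lowered were BFA1, a factor for the ATP synthase head, at −1.59 (adjusted p = 2.16e-09), PAM68, a PSII assembly factor, at −1.57 and PSB28 of PSII at −1.54. In KRAB none of the 16 was called at 0.25 μM Dex, where 0.813% of all genes tested were called lower. In P1-12 at 0.025 μM 6 of the 16 were called lower, against 3.46% of all genes tested.

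Other electron transport genes were more mixed. Of 16 listed, 14 were tested, and in P1-12 at 0.25 μM Dex 10 were lower and 0 higher, with a median of −0.94. Of all genes tested 29.2% were called lower and 28.3% higher there. TIC62, which tethers FNR, was at −1.91 (adjusted p = 3.59e-09), CYTC6A, a lumenal cytochrome, at −1.72 and FDC2, a ferredoxin-like protein, at −1.57. Not called were PTOX, the plastid terminal oxidase (0.12, adjusted p = 0.258), PGRL1B (0.10), the root-type ferredoxin gene FD3 (−0.07) and ATPC2, the second gamma gene (−0.19). Of 6 genes for state transitions and thylakoid shape 4 were lower, against 29.2% of all genes tested. These were CURT1A, CURT1C, the kinase gene STN8 (−0.47) and the phosphatase gene TAP38 (−0.31). The kinase gene STN7 was at 0.12 (adjusted p = 0.181).

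The plastid-encoded partner subunits went mostly the other way. Of 18 listed, 14 were tested, and 12 were higher and 2 lower in P1-12 at 0.25 μM Dex. Of all genes tested 28.3% were called higher and 29.2% lower there. The median log2 fold change of the 14 was 2.16. The reaction centre gene psaA had 20.7 and 22.1 CPM in P1-12 with DMSO, 53.1 and 22.9 at the low dose, 229.7 and 144 at the high dose, and 14.2 and 19.2 with DMSO and 12.7 and 14.7 with Dex in KRAB. Its log2 fold change was 3.13 (SE 0.287), that of psbA, for the D1 protein of PSII, 3.11 and that of psaB 3.02. The genes that fell were atpB (−1.001, SE 0.108) and atpE (−1.09, SE 0.124), for beta and epsilon of the ATP synthase. With 4773 and 4500.4 CPM in P1-12 (+DMSO) and 2533 and 2100.0 at 0.25 μM Dex, atpB made up 76.2% and 75.0% of the summed CPM of this list with DMSO and 47.9% and 52.3% with Dex. The summed level of the list was lower with Dex (5283 and 4012 CPM) than with DMSO (6261 and 6003 CPM). Among the ATP synthase genes the plastid genes atpA (2.77) and atpF (2.88) were higher while atpB, atpE and the nuclear genes ATPC1, ATPD and ATPG were lower. In KRAB 1 of the 14 was called, psbC at −0.57 (adjusted p = 0.0484), where 0.813% of all genes tested were called lower. The estimates of all 14 were negative there, with a median of −0.53. How RNA was selected for the libraries is not stated, and whether the selection or the tails of plastid transcripts bear on these values was not tested.

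Markers of root and of shoot outside photosynthesis both had counts, and each listed marker was above 0 in at least 1 library. In P1-12 at 0.25 μM Dex 4 of 18 root markers tested (23 listed) were higher and 1 lower, and 3 of 12 shoot markers tested (17 listed) were higher and 6 lower, beside the 28.3% higher and 29.2% lower of all genes tested. Summed root markers were at 334 and 318 CPM with DMSO, 325 and 336 at the low dose and 357 and 402 at the high dose in P1-12, and at 305 and 336 with DMSO and 379.6 and 351 with Dex in KRAB. Summed shoot markers were at 1059 and 1218 CPM, 1160.1 and 1144, 889 and 887, 1171 and 1105, and 1069 and 1182 in the same order. The root genes GPAT5 (1.48), CYP86A1 (0.79) and PIN2 (0.47) rose and the nitrate transporter gene NRT2.1 (−2.91) fell, while in the shoot list CER1 (−3.14), FAMA (−1.37) and LTP1 (−0.70) fell and SPCH (2.88), TMM (1.02) and YAB3 (0.31) rose. Summed shoot markers were lowest in P1-12 (+0.25 μM Dex), and LTP1 carried this: without it the sum was 505 and 540 CPM with DMSO in P1-12 and 523 and 496 at the high dose. The part of these markers in the fall of the 34 genes was not tested. Of 5 reference genes ACT2 rose (0.46), PP2A fell (−0.25) and the other 3 were not called.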

How the data were processed

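RNA was sequenced from 10 libraries of whole seedlings, 2 in each of 5 groups. The authors deposited raw counts per locus, without normalization, from paired 150-base reads (Trimmomatic for trimming, TopHat2 for alignment to TAIR10, HTSeq for counting). Tool versions, the strand setting and RNA selection are not given in the sources used here. All columns of the table mapped to a sample by their labels.

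These counts entered the quasi-likelihood test of edgeR 4.0.16 under R 4.3.3, with TMM scaling and 1 coefficient for each of the 5 groups, for the 16721 genes with CPM above 2 in at least 9 of 10 libraries, with Benjamini-Hochberg adjustment over all of them. The call was an adjusted p under 0.05, and an SDEG needed 0.0001 together with a log2 change of 1 or more in size. The SE is the log2 fold change divided by the square root of F. The pipeline was also run on simulated counts that gave every gene the same spread, so that run cannot show error rates in these data. Alternatives used DESeq2 1.42.0, other scalings and filters, and libraries left out in turn. Totals of 9139050 to 40544617 counts gave every member at least 647 counts in each library.

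Coordinates and sequences come from RefSeq TAIR10.1, which holds 32835 of the 33602 loci. The members, the other gene lists, the pairs and the motifs were chosen with earlier results of these data known. Values in every library are given for the most and the least lowered gene of each role, the 3 pairs whose copies differed most, and up to 4 genes by p in the other comparisons, and from the other lists up to 3 genes in each direction are named. CURT1D, STN7, STN8, TAP38, atpA, atpF and the uncalled electron transport genes were named after their values were seen.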

Additional observations from a re-analysis of the deposited data

Results flagged for a closer look

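The response to 0.25 μM Dex differed between P1-12 and KRAB for every one of the 34 genes by the interaction test in edgeR, with adjusted p-values from 1.09e-07 to 0.000719. The difference of the log2 fold changes, P1-12 minus KRAB, was −1.09 for PSAD-1, −1.36 for PSAD-2, −1.29 for PSAE-1 and −0.81 for PSAE-2 on the stromal side of PSI. On its lumenal side it was −1.11 for PSAF and −1.41 for PSAN. Among the PSI membrane subunits it was −1.13 for PSAG, −1.41 for PSAK, −0.81 for PSAH-1, −1.58 for PSAH-2, −1.03 for PSAL and −1.13 for PSAO, and it was −1.21 for PSAP.

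For the oxygen-evolving side of PSII the difference was −0.95 for PSBO1, −1.03 for PSBO2, −1.37 for PSBP-1, −1.65 for PSBQ-1, −1.48 for PSBQ-2, −0.60 for PSBR and −1.05 for PSBTN. PSBS differed by −0.98, and the small PSII subunits by −0.94 for PSBW, −1.11 for PSBX and −1.27 for PSBY. In cytochrome b6f it was −1.003 for PETC and −0.67 for PETM. The carriers and FNR had −1.25 for PETE1, −1.56 for PETE2, −0.71 for FD2, −0.999 for FNR1 and −1.16 for FNR2. The ATP synthase genes had −0.87 for ATPC1, −1.42 for ATPD and −0.68 for ATPG.

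All 34 differences had the same sign, and with 2 libraries a group no single library could be examined as far from its group. No explanation was tested.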

How the results depend on the processing

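At 0.25 μM Dex against DMSO in P1-12, against 0.025 μM, against KRAB and in the difference between the lines, all 34 genes were lower under every alternative run. The median in P1-12 at 0.25 μM Dex was −1.23 with library totals as the only scaling, which moved the median of all genes by 0.115, and −1.39 to −1.32 with 1 library left out. At 0.025 μM Dex 4 to 29 genes were lower with 1 library left out (median −0.47 to −0.28) and 28 to 33 under the other alternatives. Between the doses the median was −0.86 with library totals alone and −1.02 to −0.85 with 1 library left out, and the SDEGs were 8 and 8 to 20. In KRAB 15 genes were lower with no filter, 6 with DESeq2, 5 with the edgeR exact test, 0 with the KRAB groups alone and 0 to 2 with 1 library left out. For these KRAB runs the share of all genes called was not computed. The summed share in KRAB (+0.25 μM Dex) was 3.81% of nuclear counts. The causes were not tested. Of 3570 values for single genes 0 changed sign with a call.

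Replicate numbers did not pair the libraries (correlations of replicate differences from −0.13 to 0.07). With the replicate number as a block 34 genes were lower at 0.25 μM Dex, 28 at 0.025 μM and 1 in KRAB, and no count of calls moved by over 1.5 times. Leaving out both deepest KRAB libraries, a choice made after seeing the data, left 1 gene lower in KRAB and 34 in the difference between the lines, with the lone library of each KRAB group assumed to vary like the other groups. With all libraries thinned to the smallest total, 28 genes were lower at 0.025 μM Dex and 1 in KRAB.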

Other observations

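Across the 34 genes the log2 fold change at 0.25 μM Dex in P1-12 followed neither level nor length closely. Pearson's r was −0.19 with the log2 CPM per kb in P1-12 (+DMSO) and 0.15 with exon length, with Spearman's rho of −0.22 and 0.10. Between the Dex response in P1-12 and that in KRAB, which share no library, r was 0.13 and rho 0.06. These are descriptions over 34 genes measured in the same libraries, and genes are not independent replicates. The G-box and I-box shares of these promoters, the shift of counts between the PsaH genes and the opposite sign of atpA and atpB are the values most open to a second look.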
